A study of Mus musculus with 4 samples.

Results

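To examine whether canagliflozin altered the regulators that define fat cells, the expression of 10 transcription factors of adipocyte identity (Pparg, Cebpa, Cebpb, Ebf1, Ebf2, Rxra, Klf15, Zfp423, Stat5a and Stat5b) was followed by RNA sequencing in gonadal fat of mice, a visceral white adipose depot (gWAT). The members were taken by gene name and were 10 of the 45706 genes in the deposited table. All 4 samples were gWAT of C57B6/N mice that had received a high-fat diet (HFD) for 2 months, and the group HFD (n = 2 mice) had no drug. The group HFD+Cana (n = 2 mice) received for 7 days food with canagliflozin, an inhibitor of the kidney glucose transporter SGLT2, at 0.03% by weight. By the study's methods the mice were male. No lean or normal chow group is among the samples, so both groups shared the diet and the comparison was of the drug within diet-induced obesity. The values were TPM, a unit in which reads are divided by transcript length and every sample adds up to 1000000, so levels of different genes can be set side by side.

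Fat cells arise from fibroblast-like progenitors through a cascade of transcription factors. C/EBPβ (Cebpb) acts early and STAT5 proteins relay growth hormone and prolactin signals, and both help to induce PPARγ (Pparg), the nuclear receptor required for fat cell formation, and C/EBPα (Cebpa). PPARγ binds DNA as a heterodimer with RXRα (Rxra), and PPARγ and C/EBPα maintain each other's expression and that of genes for lipid storage and adipokines in the mature cell. EBF1 acts upstream of both, EBF2 marks progenitors and supports the thermogenic program of brown and beige fat cells, and the zinc finger protein ZFP423 commits progenitors to the fat lineage and keeps white fat cells white by restraining EBF2. KLF15 is induced by glucocorticoids, promotes adipogenesis and activates the glucose transporter gene Slc2a4.

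The RefSeq promoter windows (GRCm38.p6) of the members were read to see where binding motifs lie near the starts. The motifs were those of C/EBP, EBF, STAT and PPAR-RXR members, and the E-box, which is bound by other factors. Windows were found for 9 of the 10 members, 16 in all, and the 250 bases before each start were searched on both strands for the C/EBP motif TTGCNNAA, the EBF motif TCCCNNGGGA, the STAT motif TTCNNNGAA, the direct repeat AGGTCANAGGTCA of PPAR and RXR, and the E-box CACGTG. The 3 windows with a match are shown, 5′ to 3′ on the strand of the gene, with matches in capitals.
Pparg, downstream start: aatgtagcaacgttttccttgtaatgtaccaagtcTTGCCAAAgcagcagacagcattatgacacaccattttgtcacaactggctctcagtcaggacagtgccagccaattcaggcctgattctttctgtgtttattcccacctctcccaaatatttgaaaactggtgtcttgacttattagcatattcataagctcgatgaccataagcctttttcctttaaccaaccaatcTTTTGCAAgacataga
Zfp423, upstream start: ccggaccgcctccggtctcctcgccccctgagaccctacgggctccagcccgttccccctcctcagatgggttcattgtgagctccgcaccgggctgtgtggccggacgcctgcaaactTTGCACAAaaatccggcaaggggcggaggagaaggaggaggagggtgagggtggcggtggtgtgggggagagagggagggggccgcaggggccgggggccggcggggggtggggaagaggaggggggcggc
Klf15: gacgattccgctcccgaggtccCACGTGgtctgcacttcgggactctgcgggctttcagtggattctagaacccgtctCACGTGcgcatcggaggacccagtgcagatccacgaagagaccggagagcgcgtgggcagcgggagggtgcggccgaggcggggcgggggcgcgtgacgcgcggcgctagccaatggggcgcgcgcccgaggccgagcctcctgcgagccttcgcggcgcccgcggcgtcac
The Pparg window at chr6:115421816-115422065 (plus strand) lies before the most downstream of the 3 listed starts, within a Pparg intron of GENCODE release M21. Its C/EBP matches begin 215 and 16 bases before the start. The Zfp423 window at chr8:87959596-87959845 (minus strand) lies in no annotated gene and has a C/EBP match that begins 131 bases before the start. The Klf15 window at chr6:90462326-90462575 (plus strand) also lies in no annotated gene and has E-boxes that begin 228 and 172 bases before the start. No printed matches overlapped. Over all 32851 windows of this length, 9.56% had a C/EBP match, 0.779% an EBF match, 7.02% a STAT match, 0.033% a direct repeat and 6.02% an E-box. A match is a description of the letters and was not tested as a binding site, and gene-level TPM does not separate the starts of a gene.

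The samples had 19884 to 21129 genes above 0 TPM, and genes of mitochondrial DNA took 7.05% to 8.502% of the total. Since TPM holds no record of depth, counting errors are unknown. Fat cell markers were abundant in all 4 samples, with 3645 to 4551 TPM of the adipokine gene Adipoq. RNA of other cells differed between the groups. The summed TPM of 9 mesothelial markers was 53.8 and 39.6 in HFD and 172 and 283 in HFD+Cana, that of 8 hepatocyte markers was 10.7 and 11.4 in HFD and 110 and 150 in HFD+Cana, and that of 5 red blood cell genes was 1756 and 5940 in HFD and 14391 and 6672 in HFD+Cana. The part of these cells in the results below was not tested. In whole tissue, fewer cells of a type and less RNA per cell cannot be told apart.

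The 10 factors spanned 11.5 to 205 TPM in their mean over the 4 mice, and the order of their levels was led by Cebpa, Pparg and Rxra. Cebpa was the highest with 205 ± 19.97 TPM (SD, n = 4 mice), above 95.02% of the 13788 genes whose mean reached 1 TPM. Pparg had 149 ± 17.7 TPM and Rxra 65.2 ± 4.95 TPM, and these 3 held the top 3 places in the same order in every mouse without overlap of their ranges. Ebf1 and Klf15 followed with 44.1 ± 4.55 and 44.0 ± 4.36 TPM and did not differ beyond their spread, as Ebf1 was the higher in 2 of 4 mice. Zfp423 (25.2 ± 8.21 TPM), Stat5b (24.0 ± 0.994 TPM) and Cebpb (23.6 ± 3.53 TPM) had overlapping ranges. Stat5a had 17.8 ± 1.34 TPM, and Ebf2 was the lowest of the 10 in every mouse with 11.5 ± 2.46 TPM. Zfp423 was the sixth highest in both HFD mice and took place 9 and place 8 in the HFD+Cana mice, whereas no other member moved by more than 2 places between any mice.

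**Figure D1:**
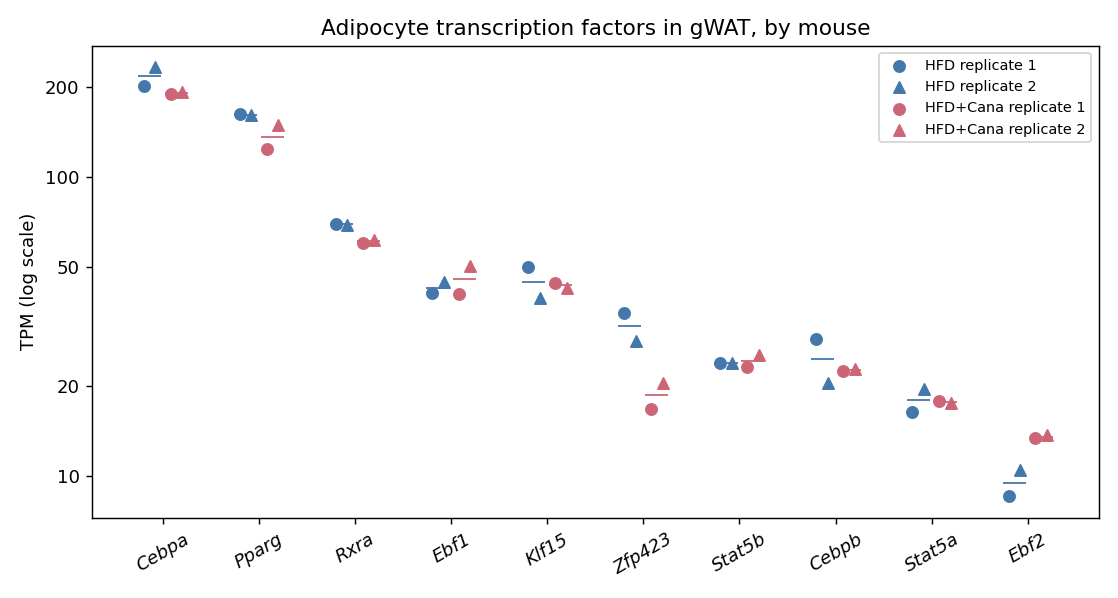
TPM of the 10 transcription factors in each mouse on a log axis, ordered by the mean over the 4 mice (blue, HFD; red, HFD+Cana; circles, replicate 1; triangles, replicate 2; lines, group means of n = 2 mice). Cebpa, Pparg and Rxra are highest in every mouse, Zfp423 is lower and Ebf2 higher in both HFD+Cana mice, and the groups overlap in Ebf1, Klf15, Stat5b, Cebpb and Stat5a.

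The groups were compared by limma on log2(TPM + 1) across the 13788 genes, a scale that understates the fold change of low genes, with Benjamini-Hochberg adjustment over all of them. None of the 10 factors passed an adjusted p of 0.05 (0 of 10, where 0.0435% of all genes passed). At an unadjusted p under 0.05 there were 2 of 10, Zfp423 as lower and Ebf2 as higher, where 10.8% of all genes were so. Without HFD replicate 1 or HFD+Cana replicate 1 only Zfp423 was, and without HFD+Cana replicate 2 the 2 were Zfp423 and Pparg, both lower. The groups did not overlap in 5 of 10, with Pparg, Cebpa, Rxra and Zfp423 lower and Ebf2 higher in HFD+Cana, where 44.1% of all genes did not overlap, 19.8% as lower and 24.3% as higher. The median log2 fold change was -0.065 over the 10 factors and 0.019 over all genes tested, and the median absolute log2 fold change was 0.14 and 0.13. As a set, the factors were thus near the background of this comparison. With 2 mice in each group the smallest two-sided p of an exact permutation test is 0.333.

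**Figure D2:**
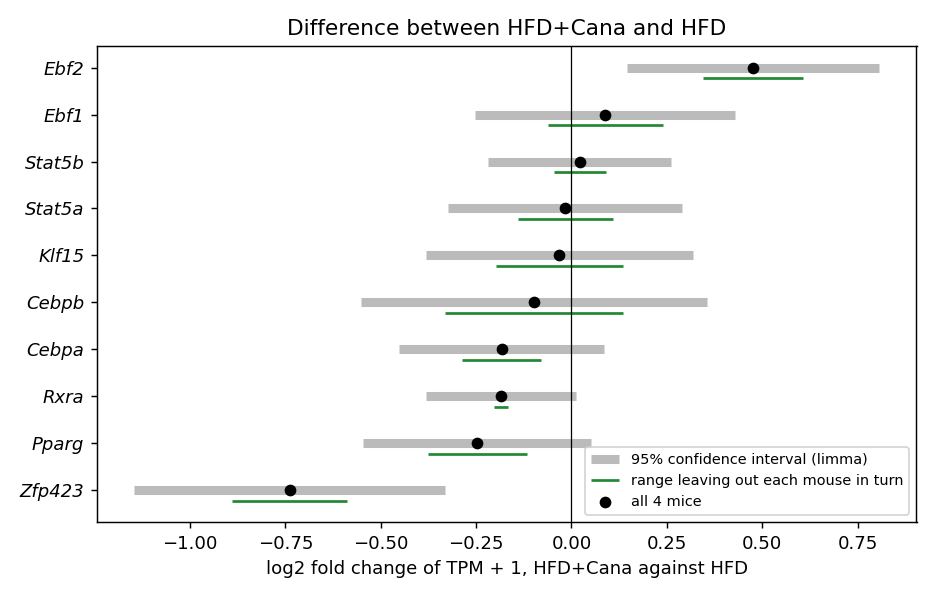
Log2 fold change of TPM + 1 between HFD+Cana and HFD for each factor (black, all 4 mice; grey, 95% confidence interval from limma, not adjusted for the number of genes; green, range when each mouse is left out in turn). The intervals of Zfp423 and Ebf2 do not include 0, those of the other 8 factors do, and the green ranges of Cebpb, Klf15, Stat5a, Stat5b and Ebf1 cross 0.

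Zfp423 and Ebf2, which act against each other in the choice between white and beige fat cells, had the largest differences among the 10, in opposite directions. Zfp423 (chromosome 8, 87661810 to 87959595) had 35.1 and 28.3 TPM in HFD against 16.8 and 20.4 TPM in HFD+Cana, so both treated mice were below both controls. The mean of the treated mice was 18.6 ± 2.59 TPM and that of the controls 31.7 ± 4.81 TPM (SD, n = 2). This was 58.6% of the HFD level, with a log2 fold change of -0.74 (standard error, SE, 0.15, adjusted p = 0.268, limma). It was 311th of 13788 genes by p and stayed between -0.89 and -0.59 when each mouse was left out. Ebf2 (chromosome 14, 67233292 to 67430918) had 8.52 and 10.4 TPM in HFD against 13.4 and 13.6 TPM in HFD+Cana. Both treated mice were above both controls, and the means were 13.5 ± 0.190 and 9.47 ± 1.34 TPM (SD, n = 2). This was 143% of the HFD level, with a log2 fold change of 0.48 (SE 0.13, adjusted p = 0.334, limma). Leaving out each mouse gave 0.34 to 0.61. The ratio of Ebf2 to Zfp423, chosen after their values were seen, was 0.243 and 0.368 in HFD and 0.797 and 0.668 in HFD+Cana. The groups could not overlap in this ratio, since both genes were already apart in opposite directions, so it adds no further observation. The ratio of Ebf1 to Ebf2 was 4.79 and 4.26 in HFD and 3.05 and 3.69 in HFD+Cana, without overlap. It uses the same Ebf2 values, while Ebf1 itself overlapped between the groups.

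Genes that work with this pair were mixed. Zfp521, a relative of Zfp423 that opposes it in progenitors, had 3.72 and 4.31 TPM in HFD against 5.26 and 5.18 TPM in HFD+Cana (log2 fold change 0.31, adjusted p = 0.486, limma). Tle3, a corepressor that favors the white over the thermogenic program, had 105 and 84.7 TPM in HFD against 62.8 and 60.5 TPM in HFD+Cana (log2 fold change -0.60, SE 0.12, adjusted p = 0.268, limma). Its opponent Prdm16, the coregulator that EBF2 works with in brown fat cells, also chosen after its values were seen, was low and overlapped, with 3.61 and 6.40 TPM in HFD against 3.85 and 3.18 TPM in HFD+Cana. Of 5 thermogenic genes only 2 reached a mean of 1 TPM and were tested, and of these 0 were higher and 1, Cox8b, was lower in both HFD+Cana mice than in both HFD mice, where 24.3% and 19.8% of all genes were so. Elovl3, below the minimum and chosen after its values were seen, had 0.708 and 0.762 TPM in HFD against 0.350 and 0.398 TPM in HFD+Cana. The uncoupling protein gene Ucp1 was at 0.0418 to 0.110 TPM in the 4 mice. Cox8b, a respiratory chain subunit of muscle and brown fat chosen after its values were seen, had 82.0 and 64.8 TPM in HFD against 20.9 and 38.5 TPM in HFD+Cana (log2 fold change -1.33, adjusted p = 0.290, limma). The summed TPM of 8 skeletal muscle markers was also lower, with 244 and 271 in HFD and 113 and 197 in HFD+Cana. Most of this sum was Acta1, with 220 and 195 TPM in HFD against 99.3 and 187 TPM in HFD+Cana. Ckm, another of these markers, had 0 and 11.4 TPM in HFD against 0.224 and 0.0249 TPM in HFD+Cana. The part of muscle RNA in the Cox8b values was not tested.

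Both genes are also expressed in fat progenitors, and Zfp423 in mural cells of vessels, so markers of these cells are given beside them. Of 8 progenitor markers 7 were tested, 0 passed an adjusted p of 0.05, and 5 were higher and 0 lower at an unadjusted p under 0.05, where 5.32% and 5.45% of all genes were so. Pdgfra, the receptor that marks fat progenitors, had 19.5 and 18.5 TPM in HFD against 26.6 and 28.9 TPM in HFD+Cana, which is the direction of Ebf2 and the opposite of Zfp423. The summed progenitor markers were 1251 and 1447 TPM in HFD against 1684 and 1892 TPM in HFD+Cana. The summed pericyte and smooth muscle markers were 800.0 and 1074 TPM in HFD against 766 and 740.0 TPM in HFD+Cana. The part of a shift in these cells was not tested.

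**Figure D3:**
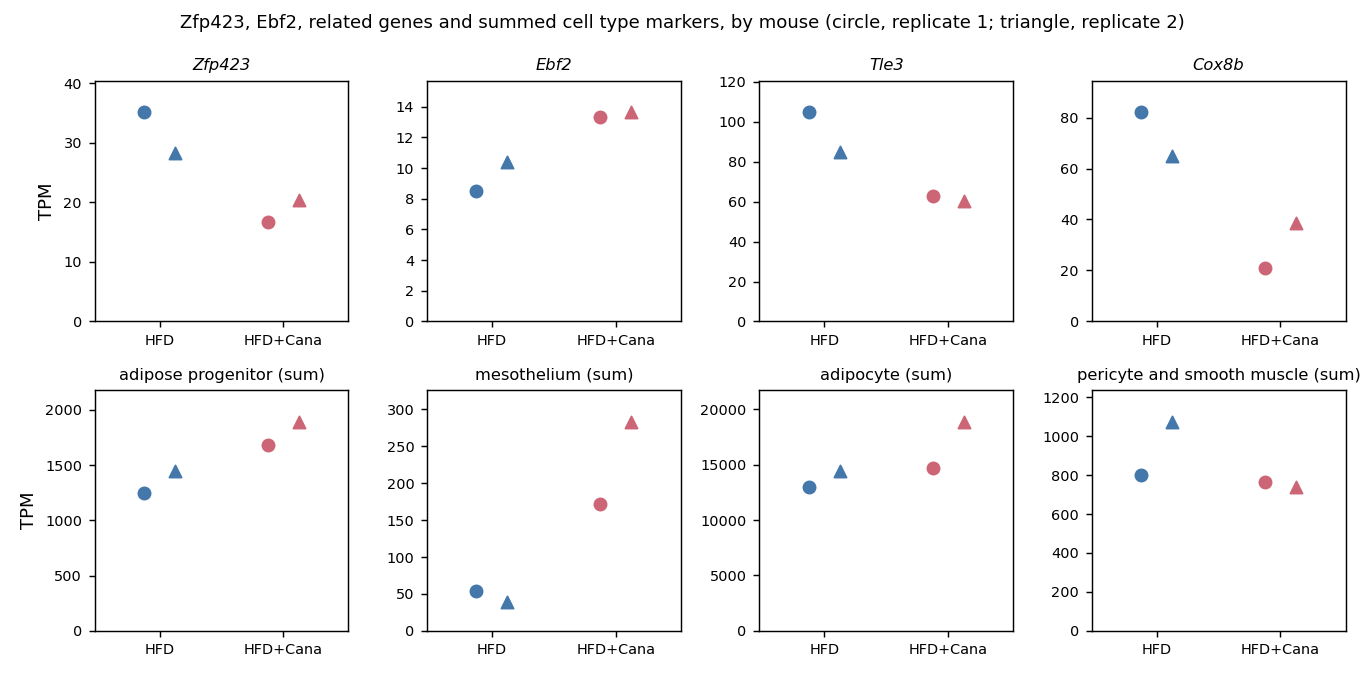
TPM of Zfp423, Ebf2, the corepressor gene Tle3 and Cox8b, and summed TPM of 4 marker lists, in each mouse (blue, HFD; red, HFD+Cana; all axes start at 0). Zfp423, Tle3, Cox8b and the pericyte and smooth muscle sum are lower in both HFD+Cana mice. Ebf2 and the progenitor, mesothelial and adipocyte sums are higher in both. The adipocyte sum includes Cfd, with 1620 and 2445 TPM in HFD against 4838 and 7433 TPM in HFD+Cana. Of the 6 adipocyte markers 2 are higher and 2 lower in both HFD+Cana mice, where 24.3% and 19.8% of all genes are so. The HFD+Cana mean is 58.6% of the HFD mean for Zfp423 and 143% for Ebf2.

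The master regulators Pparg and Cebpa and the partner gene Rxra were each a little lower in both HFD+Cana mice, and none passed the test. Pparg (chromosome 6, 115360951 to 115490399) had 162 and 162 TPM in HFD against 124 and 149 TPM in HFD+Cana, so the HFD mice were nearly equal and the spread lay in the treated group. Its mean was 84.5% of that in HFD, with a log2 fold change of -0.25 (SE 0.11, adjusted p = 0.510, limma). The 95% interval ran from -0.54 to 0.05. Without HFD+Cana replicate 1, the lowest mouse, the log2 fold change was -0.12, and without HFD+Cana replicate 2 it was -0.38. Rxra (chromosome 2, 27676440 to 27762957) had 69.8 and 69.1 TPM in HFD against 60.2 and 61.8 TPM in HFD+Cana, with the 2 mice of each group close together. Its log2 fold change was -0.18 (SE 0.075, adjusted p = 0.478, limma) and varied least of the 10 when each mouse was left out, from -0.20 to -0.17. Cebpa (chromosome 7, 35119293 to 35121928) had 202 and 234 TPM in HFD against 190 and 193 TPM in HFD+Cana, with a log2 fold change of -0.18 (SE 0.10, adjusted p = 0.575, limma). Without HFD replicate 2, its highest mouse, the value was -0.08. The ratio of Pparg to its partner Rxra was 2.33 and 2.34 in HFD and 2.07 and 2.42 in HFD+Cana, with overlap of the groups.

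Of 25 target genes of the mature fat cell, a list not limited to direct targets of PPARγ and C/EBPα, all 25 were tested. Of these 0 passed an adjusted p of 0.05. Those with an unadjusted p under 0.05 were 9 lower and 3 higher genes, where 5.45% and 5.32% of all genes were so. The lower genes numbered 7 without HFD+Cana replicate 2 and 5 with any one of the other 3 mice left out, and the higher genes 1 to 4. Their median log2 fold change was -0.25, from -0.31 to -0.18 when each mouse was left out, -0.44 when scaled to 6 adipocyte markers and -0.16 when scaled to these without Cfd. Values within the list went both ways. Gpd1, which makes the glycerol phosphate backbone of triglyceride, had 724 and 589 TPM in HFD against 356 and 319 TPM in HFD+Cana (log2 fold change -0.95, SE 0.14, adjusted p = 0.207, limma). Dgat2, which adds the last fatty acid to triglyceride, had 744 and 903 TPM against 471 and 402 TPM (log2 fold change -0.91, adjusted p = 0.229, limma), and Acsl1, which activates fatty acids, had 631 and 677 TPM against 426 and 484 TPM (log2 fold change -0.52, adjusted p = 0.268, limma). Cfd, which encodes the adipokine adipsin, went the other way, with 1620 and 2445 TPM in HFD against 4838 and 7433 TPM in HFD+Cana (log2 fold change 1.59, SE 0.31, adjusted p = 0.264, limma). The fatty acid carrier gene Fabp4 and Adipoq, classic PPARγ targets chosen after their values were seen, had overlapping groups with log2 fold changes of 0.070 and 0.12. They do not stand for the list. In all, 15 of the 25 genes were lower and 4 higher in both HFD+Cana mice than in both HFD mice. Of all genes 19.8% and 24.3% were so.

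Partners and coregulators of PPARγ numbered 18, of which 17 were tested and 0 passed an adjusted p of 0.05. Unadjusted p-values under 0.05 numbered 3 for lower and 0 for higher genes, where 5.45% and 5.32% of all genes were so. The median log2 fold change was -0.09, but -0.26 when scaled to 6 adipocyte markers and -0.005 when scaled to these without Cfd. Leaving out HFD+Cana replicate 2 gave a median of -0.019 and leaving out HFD+Cana replicate 1 one of -0.15, while leaving out HFD replicate 1 gave -0.057 and leaving out HFD replicate 2 gave -0.033. The lower genes included, beside Tle3, the gene Nr1h3 of the oxysterol receptor LXRα, which also pairs with RXRα. Nr1h3 had 109 and 106 TPM in HFD against 85.6 and 91.6 TPM in HFD+Cana (log2 fold change -0.28, adjusted p = 0.375, limma). The deacetylase gene Sirt1, which restrains PPARγ, had 9.11 and 10.2 TPM in HFD against 11.1 and 12.6 TPM in HFD+Cana (adjusted p = 0.490, limma). Most of the list lay close to 0, as for the coactivator gene Ncoa2, chosen after its values were seen, with 17.1 and 17.1 TPM in HFD against 16.9 and 16.1 TPM in HFD+Cana.

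The early factor Cebpb and the glucocorticoid-responsive Klf15 overlapped between the groups, and in both the highest value was that of HFD replicate 1. Cebpb (chromosome 2, 167688915 to 167690418) had 28.6 and 20.5 TPM in HFD against 22.4 and 22.7 TPM in HFD+Cana. Its log2 fold change was -0.10 (95% interval -0.55 to 0.35, adjusted p = 0.864, limma), and without HFD replicate 1 it turned to 0.13. Klf15 (chromosome 6, 90462576 to 90475238) had 49.9 and 39.4 TPM in HFD against 44.1 and 42.7 TPM in HFD+Cana, giving a log2 fold change of -0.03 (95% interval -0.38 to 0.32, adjusted p = 0.948, limma) that turned to 0.13 without HFD replicate 1. The ratio of Cebpa to Cebpb was 7.07 and 11.4 in HFD and 8.47 and 8.49 in HFD+Cana. Of 8 glucocorticoid-induced genes 0 passed an adjusted p of 0.05. At an unadjusted p under 0.05 there were 0 higher and 0 lower, where 5.32% and 5.45% of all genes were so. The median log2 fold change of the list was -0.10. It turned to 0.071 without HFD replicate 1 and to 0.058 without HFD+Cana replicate 1, and was -0.31 with HFD replicate 2 left out and -0.30 with HFD+Cana replicate 2 left out. In the last case 3 genes were lower at an unadjusted p under 0.05. The median was -0.30 when scaled to 6 adipocyte markers and -0.02 when scaled to these without Cfd. The members of smallest p, Zbtb16 and Fkbp5, had adjusted p-values of 0.538 and 0.546 in limma, and Mt2 and Tsc22d3 had 0.899 and 0.908. Tsc22d3, which encodes the glucocorticoid-induced leucine zipper, had 514 and 348 TPM in HFD against 365 and 433 TPM in HFD+Cana, and like Klf15 it was highest in HFD replicate 1. Slc2a4, the glucose transporter gene that KLF15 activates, chosen after its values were seen, had 87.7 and 89.8 TPM in HFD against 71.7 and 86.1 TPM in HFD+Cana (log2 fold change -0.17, adjusted p = 0.625, limma).

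Ebf1 (chromosome 11, 44617317 to 45008091) had 40.8 and 44.4 TPM in HFD against 40.7 and 50.4 TPM in HFD+Cana, with overlap of the groups. Its log2 fold change was 0.09 (95% interval -0.25 to 0.43, adjusted p = 0.840, limma) and turned to -0.06 without HFD+Cana replicate 2, the highest mouse. EBF1 is also a factor of B cells, so B cell markers are given beside Ebf1. The part of B cells in the Ebf1 values was not tested. Cd79a had 0.697 to 4.06 TPM, and all 6 B cell markers together 3.99 and 6.52 TPM in HFD against 11.1 and 4.85 TPM in HFD+Cana. The relative Ebf3 had 9.31 and 11.6 TPM in HFD against 10.05 and 12.3 TPM in HFD+Cana, and Ebf4 was below 1 TPM in every mouse; both were chosen after their values were seen.

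Stat5a and Stat5b showed the smallest differences of the 10. Stat5a (chromosome 11, 100859351 to 100885169) had 16.3 and 19.6 TPM in HFD against 17.8 and 17.5 TPM in HFD+Cana, giving a log2 fold change of -0.016 (95% interval -0.32 to 0.29, adjusted p = 0.971, limma). Its neighbor Stat5b (chromosome 11, 100780731 to 100850724) had 23.8 and 23.7 TPM in HFD against 23.0 and 25.4 TPM in HFD+Cana, giving a log2 fold change of 0.022 (95% interval -0.22 to 0.26, adjusted p = 0.948, limma). Stat5b was the higher of the pair in every mouse, with ratios of Stat5a to Stat5b of 0.685 and 0.824 in HFD and 0.774 and 0.690 in HFD+Cana. Both signs depended on single mice, as Stat5a turned to 0.11 without HFD replicate 2 and Stat5b to -0.05 without HFD+Cana replicate 2. The transcripts of the pair are partly alike: in GENCODE release M21, 11.7% of the words of 31 bases in Stat5a and 15.2% of those in Stat5b occur in transcripts of other genes, nearly all of them of the partner. For the other 8 factors this share was 0.0% to 0.552%. Reads from shared stretches are divided between the genes by estimation, so the ratio of the pair is less certain than the other levels.

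Of 11 genes around STAT5, 0 passed an adjusted p of 0.05. At an unadjusted p under 0.05 there were 2 higher and 1 lower, where 5.32% and 5.45% of all genes were so, and the groups did not overlap in 7 that were higher and 2 that were lower, where 24.3% and 19.8% of all genes were so. The median log2 fold change was 0.17, and it was 0.014 when scaled to 6 adipocyte markers and 0.26 when scaled to these without Cfd. The prolactin receptor gene Prlr was low, with 2.42 and 2.47 TPM in HFD against 3.37 and 4.23 TPM in HFD+Cana (log2 fold change 0.47, adjusted p = 0.441, limma). Socs3, a feedback inhibitor of cytokine signalling, had 5.68 and 5.61 TPM in HFD against 12.3 and 7.33 TPM in HFD+Cana (log2 fold change 0.66, adjusted p = 0.453, limma), with the larger part of the difference in HFD+Cana replicate 1. Igf1, a target of growth hormone and STAT5, had 219 and 190 TPM in HFD against 154 and 130 TPM in HFD+Cana (log2 fold change -0.52, SE 0.13, adjusted p = 0.305, limma). The phosphatase gene Ptpn11 had 84.3 and 84.6 TPM in HFD against 69.1 and 75.5 TPM in HFD+Cana (adjusted p = 0.463, limma). The growth hormone receptor gene Ghr, chosen after its values were seen, had 752 and 800.0 TPM in HFD against 839 and 908 TPM in HFD+Cana (log2 fold change 0.17, adjusted p = 0.602, limma).

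Among 15 other factors that promote adipogenesis, 14 were tested and 0 passed an adjusted p of 0.05. At an unadjusted p under 0.05 there were 1 higher and 1 lower, where 5.32% and 5.45% of all genes were so. The lower was Srebf1, which drives lipid synthesis genes, with 108 and 117 TPM in HFD against 79.9 and 69.1 TPM in HFD+Cana (log2 fold change -0.60, SE 0.11, adjusted p = 0.244, limma). The higher was Klf4, an early inducer of Cebpb, with 45.02 and 44.97 TPM in HFD against 58.2 and 62.6 TPM in HFD+Cana (log2 fold change 0.42, SE 0.081, adjusted p = 0.264, limma). Bcl6 had 36.4 and 35.1 TPM in HFD against 31.6 and 21.7 TPM in HFD+Cana (adjusted p = 0.500, limma), and Zbtb16 had 49.6 and 43.6 TPM against 37.0 and 42.2 TPM. Of 13 factors that restrain adipogenesis 11 were tested and 0 passed. With 5.32% of all genes higher and 5.45% lower at an unadjusted p under 0.05, this list had 0 lower and 1 higher gene. It was Klf2, which represses Pparg, with 56.4 and 50.3 TPM in HFD against 75.2 and 69.0 TPM in HFD+Cana (log2 fold change 0.43, SE 0.099, adjusted p = 0.290, limma). Wwtr1, which encodes the PPARγ corepressor TAZ, had 116 and 97.7 TPM against 87.1 and 88.7 TPM (adjusted p = 0.478, limma), and Klf3 had 37.2 and 40.05 TPM against 44.7 and 44.4 TPM (adjusted p = 0.480, limma). The median log2 fold changes of these lists were 0.11 and 0.047, but both were below 0 (-0.07 and -0.14) when TPM were scaled to 6 adipocyte markers and above it (0.19 and 0.13) when scaled to these without Cfd. With mice left out the first ran from 0.01 (without HFD replicate 2) to 0.14 and the second from -0.016 (without HFD+Cana replicate 1) to 0.25 (without HFD replicate 2). Of 15 family relatives of the members 13 were tested, and 0 passed. At an unadjusted p under 0.05 the relatives had 0 higher and 1 lower, where 5.32% and 5.45% of all genes were so. Stat3 had 56.1 and 52.7 TPM in HFD against 62.9 and 60.0 TPM in HFD+Cana (adjusted p = 0.522, limma), and the RXR gene Rxrg had 7.87 and 9.59 TPM against 7.17 and 6.88 TPM (adjusted p = 0.527, limma). In these lists and those of partners, STAT5 genes and glucocorticoid-induced genes, the counts at an unadjusted p under 0.05 were at most 3 genes in a direction. Counts this small are too few to be called stable.

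**Figure D4:**
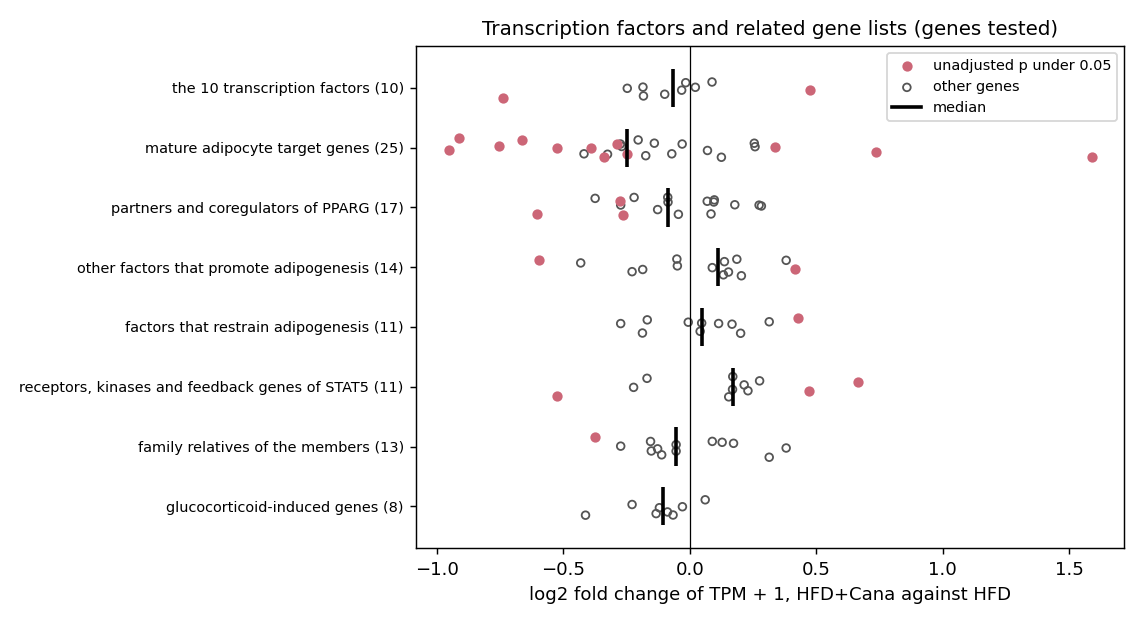
Log2 fold change of TPM + 1 between HFD+Cana and HFD for the 10 transcription factors and for the tested genes of 7 related lists (numbers in parentheses; red, unadjusted p under 0.05; open circles, other genes; black bars, medians). No gene shown passed an adjusted p of 0.05, and the medians run from -0.25 for the target genes to 0.17 for the genes around STAT5.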

How the data were processed

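Stranded libraries of polyadenylated RNA from gWAT of 4 mice were sequenced as paired reads. The authors ran the nf-core/rnaseq pipeline at its defaults and deposited Salmon TPM per gene, and each deposited column sums to 1000000. According to the submitters' processing notes the build was GRCm38 (mm10), with R 4.3.2. Its annotation release was not given in the sources used here. Grouping followed the treatment label. GENCODE release M21 held 45143 of the 45706 gene IDs and gave positions, and 27 names turned into dates were restored by ID.

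TPM are not counts, so no count test was run. For the 13788 genes whose mean reached 1 TPM, limma 3.58.1 (eBayes with trend, R 4.3.3) was fitted to log2(TPM + 1) with a term for the group and Benjamini-Hochberg adjustment. The fit was checked on simulated data with changes larger than that of any member. The check thus does not cover differences of the members' size. The 10 members, the 7 lists, the markers and the tests were chosen with earlier results of these data known. All members were named, with the 4 genes of smallest p of each list. Some genes that this rule takes are not reported here. Further genes are marked as chosen after their values were seen. A total of 16 alternative settings was run, of which the scaling to adipocyte markers without Cfd was added after seeing the data. Python 3.11.15 with pandas 2.3.3, scipy 1.17.1 and matplotlib 3.10.9 made tables and plots.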

Additional observations from a re-analysis of the deposited data

How the results depend on the processing

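Under all 16 alternative settings 0 of the 10 factors passed an adjusted p of 0.05 in limma, and Pparg, Cebpa, Rxra, Zfp423 and Ebf2 kept their direction, at -0.44 to -0.12, -0.38 to -0.08, -0.38 to -0.10, -0.92 to -0.59 and 0.30 to 0.61. The lowest adjusted p among them was 0.134, for Zfp423 scaled to 6 adipocyte markers, and its highest was 0.842. Signs turned only in members within 0.10 of 0: with median-of-ratios scaling Stat5b was at -0.001; scaled to 6 adipocyte markers Ebf1 was at -0.10 and Stat5b at -0.17; scaled to these without Cfd, Klf15 was at 0.051 and Stat5a at 0.065. The scaling to 6 adipocyte markers, of which Cfd was higher in HFD+Cana, moved the median of all genes from 0.02 to -0.16, and that without Cfd to 0.096. Leaving out mice, Cebpb ranged from -0.33 to 0.13, Klf15 from -0.20 to 0.13, Stat5a from -0.14 to 0.11, Ebf1 from -0.062 to 0.24 and Stat5b from -0.046 to 0.09. The members at an unadjusted p under 0.05 were 2, but 1 without HFD replicate 1, without HFD+Cana replicate 1 and when scaled to 6 adipocyte markers, and 3, with Rxra lower, with no filter and with median-of-ratios scaling. The genes of the lists past the threshold were 0, and 1, Cfd, when scaled to 6 adipocyte markers. Over all genes 6 higher and 0 lower passed. There were 0 higher with a pseudocount of 0.1, no filter, a minimum mean of 5 TPM, quantile normalization or any mouse left out, 2 with a pseudocount of 5, 13 without trend, 58 (and 29 lower) scaled to 6 adipocyte markers and 30 (and 2 lower) without Cfd. The replicate numbers were not stated to pair mice, and deviations of same-numbered mice had a correlation of 0.178 over genes. With the replicate number as a block 0 members and 2 of all genes passed, and the lowest adjusted p of a member was 0.225, for Ebf2. Mean and median TPM gave like levels, as did linear and log2 ratios. With 2 mice per group and unknown depth, failure to pass the threshold does not show that a member was unchanged.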
